A study of Homo sapiens with 12 samples.

Results

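The 10 genes described here are chemokine ligands, CCL2, CCL5, CCL26, CXCL1, CXCL2, CXCL3, CXCL8, CXCL12, CXCL16 and CX3CL1. They were taken by gene symbol from a count table of 58381 genes. Their mRNA was measured by RNA sequencing in Hs578T and MDA-MB-231, established cell lines of triple negative breast cancer, with and without CD44, the cell surface receptor for hyaluronan. The table holds 12 libraries, 3 in each of 4 groups named Hs578T CD44 WT, Hs578T CD44 KO, MDA-MB-231 CD44 WT and MDA-MB-231 CD44 KO. The comparison of CD44 KO with CD44 WT in each line asks how chemokine transcripts differ between cells with and without this receptor.

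All 4 groups were exposed to a lentivirus carrying a doxycycline-inducible Cas9, to puromycin and to doxycycline. Cells of the CD44 KO groups also received guide RNAs against exons 1 and 5 of CD44, while the CD44 WT groups had only the transfection reagent and no guide RNA. Live cells that stained for CD29 were then sorted into CD44 positive and CD44 negative populations, which were not clones. All cells were kept in low serum before the RNA was taken. Whether the 3 libraries of a group were grown separately is not stated, so that p-values measure only the spread between these samples, which may be technical.

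Chemokines are small secreted or membrane-bound proteins that direct the migration of leukocytes through G protein-coupled receptors. CC chemokines such as CCL2 act mainly on monocytes, lymphocytes and eosinophils, whereas CXC chemokines such as CXCL8 with an ELR sequence near their start act mainly on neutrophils. In breast tumors they are made by carcinoma cells as well as by stroma, and CCL2 is known for recruiting monocytes that become macrophages. Many of them are inducible genes under the transcription factor NF-kappaB, and their mRNAs often carry AU-rich elements that shorten their life.

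Total counts ran from 10257586 to 19725543 per library, and the level of a gene is given in CPM, the count of the gene scaled to a fixed library total after correction by TMM factors. The targeted gene, CD44, was at 493.9 to 527.2 CPM in Hs578T CD44 WT and 24.9 to 28.6 CPM in Hs578T CD44 KO, and at 359.6 to 362.7 and 30.0 to 40.3 CPM in the same groups of MDA-MB-231. Replicate 1 of MDA-MB-231 CD44 WT stood apart from the other 2 libraries of its group, with a chi-square per gene of 19.4 and 29.5 against them, where all other pairs within a group lay between 4.41 and 14.5. The number of 1 library of this group was not clear from the labels, and it is called the unnumbered library. Of 8 leukocyte markers, AIF1 and MS4A1 had 0 counts in both lines, and the summed level of the list was 5.25 to 6.17 CPM in Hs578T CD44 WT and 7.93 to 9.39 CPM in Hs578T CD44 KO, in which PTPRC (CD45) was higher. The other markers of the list did not rise as a set. CSF1R was at 4.10 CPM in Hs578T CD44 WT and 4.14 CPM in Hs578T CD44 KO. CD3E, CD14 and ITGAM went from 20, 13 and 8 counts to 13, 4 and 1, and LYZ from 1 to 9. Of the breast carcinoma line markers, PGR had 0 counts in all libraries. In bulk RNA, fewer cells of a kind and less RNA per cell cannot be told apart.

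Of the 10 chemokines, 9 exceeded 1 CPM in 2 or more libraries and were tested, while CCL5 was not. A gene was called when its Benjamini-Hochberg adjusted p in edgeR's quasi-likelihood test over 15836 genes was at most 0.01. In Hs578T, 2 chemokines were called lower in CD44 KO, CCL2 and CCL26, where 3.86% of all genes tested were called lower and 7.51% in either direction. In MDA-MB-231, 1 chemokine was called lower, CCL2, against 2.65% of all genes tested called lower and 4.62% in either direction. No chemokine was called higher in CD44 KO in either line by this test, where 3.64% of all genes were called higher for Hs578T and 1.97% for MDA-MB-231. DESeq2 also called 0 higher in either line. At an unadjusted p under 0.05, 4 chemokines were lower and 1 was higher in CD44 KO of each line. The share of all genes at an unadjusted p under 0.05 is not given here, so counts at that threshold are not set against it. The median log2 fold change was -0.51 over the 9 chemokines in Hs578T, where that of all genes was -0.0016, and -0.98 over the 7 chemokines with more than 3 counts in a group of MDA-MB-231, where that of all genes was -0.0096. In Hs578T, 6 of the 9 were below 0 and 3 above, and in MDA-MB-231, 4 of the 7 were below 0 and 3 above. Both medians are the values of CXCL16, which was not called in either line.

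**Figure D1:**
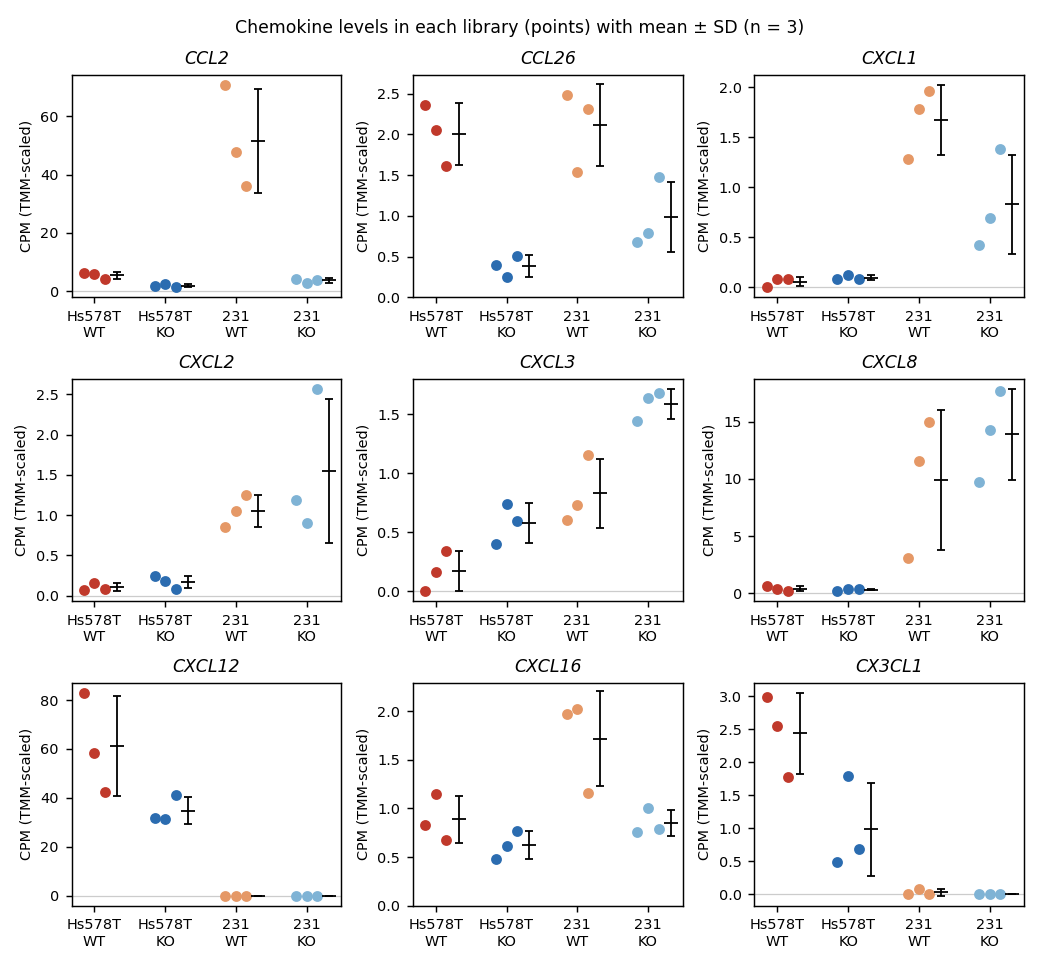
Level of 9 chemokines in CPM (linear axes, a scale of its own for each gene) in each of the 12 libraries, with the mean and SD of each group (n = 3) beside the points. CCL2 lies between 36.0 and 70.9 CPM in MDA-MB-231 CD44 WT and at or below 6.17 CPM in every other library, and CXCL12 is at 0 in all 6 MDA-MB-231 libraries.

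CCL2 fell in CD44 KO cells of both lines, and it was the only one of the 10 chemokines called in both. It encodes monocyte chemoattractant protein 1, a ligand of CCR2 that attracts monocytes. CCL2 is listed as ENSG00000108691.9 and occupies bases 34255218 to 34257203 of chromosome 17 (plus strand, build GRCh38). In MDA-MB-231 CD44 WT it was at 70.9 CPM in replicate 1, 47.6 CPM in replicate 3 and 36.0 CPM in the unnumbered library. In MDA-MB-231 CD44 KO it was at 4.15, 2.86 and 3.95 CPM in replicates 1, 2 and 3. Every CD44 KO library of this line lay far below every CD44 WT library, and the CD44 WT libraries differed among themselves more than the CD44 KO libraries. The means were 51.5 ± 17.8 CPM and 3.65 ± 0.695 CPM (SD, n = 3 each), a 14.1-fold difference, and the log2 fold change was -3.85 (standard error (SE) 0.257, adjusted p = 2.54e-07 in edgeR's quasi-likelihood test). It kept the call in all 12 fits that left out 1 library, with log2 fold changes from -4.05 to -3.55.

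In Hs578T the level of CCL2 was lower from the start. CD44 WT libraries held 6.17, 5.92 and 4.06 CPM in replicates 1, 2 and 3, and CD44 KO libraries 1.68, 2.34 and 1.45 CPM. The lowest CD44 WT library still lay above the highest CD44 KO library. The means were 5.39 ± 1.15 CPM and 1.83 ± 0.463 CPM (SD, n = 3 each), a 2.95-fold difference, and the log2 fold change was -1.53 (SE 0.313, adjusted p = 0.00371 in the same test). Of the 6 Hs578T libraries, 4 were each needed for this call. Leaving out replicate 1 of CD44 WT gave -1.42 (adjusted p = 0.0234) and leaving out its replicate 2 gave -1.46 (0.0167), while the fits lacking replicate 1 or 3 of CD44 KO gave -1.47 (0.0191) and -1.39 (0.0197).

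The change of CCL2 was larger in MDA-MB-231 than in Hs578T, by 2.31 on the log2 scale (SE 0.419, adjusted p = 0.00269 in edgeR's quasi-likelihood test of the difference), where 4.12% of all genes tested were called for this difference and 2.33% in this direction. Without Hs578T CD44 KO replicate 2 it was 2.07 and was not called (adjusted p = 0.0223). CCL2 was the 1 chemokine called for this difference. The adjusted p-values of the others with more than 3 counts in a group of each line ran from 0.160 for CCL26 to 0.957 for CXCL2. In order of level, MDA-MB-231 CD44 WT was highest, Hs578T CD44 WT and MDA-MB-231 CD44 KO came next with ranges that overlapped at 4.06 and 4.15 CPM, and Hs578T CD44 KO was lowest, below all libraries of the other groups. None of the 8 tested genes within 1 Mb of CCL2 was called lower in either line by edgeR, and their median change on the log2 scale was 0.12 for Hs578T and 0.01 for MDA-MB-231.

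**Figure D2:**
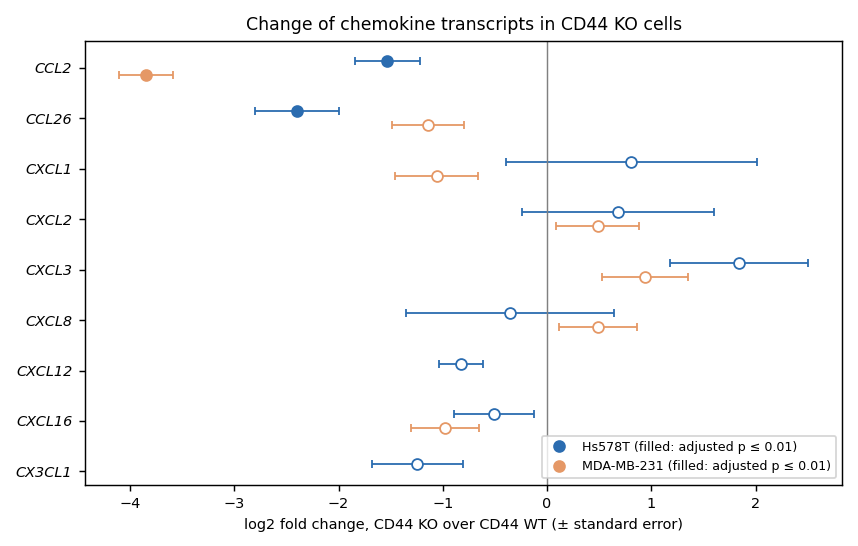
Change of CD44 KO relative to CD44 WT on the log2 scale (points) with its standard error (bars) for each chemokine in Hs578T (blue) and MDA-MB-231 (orange), filled where the adjusted p was at most 0.01. CCL2 is filled in both lines, at -1.53 and -3.85, and CCL26 in Hs578T alone, at -2.40; CXCL12 and CX3CL1 are not drawn for MDA-MB-231, where both groups held 0 or 1 count.

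CCL26 was the other chemokine that fell in Hs578T. It encodes eotaxin 3, a ligand of CCR3 that attracts eosinophils and basophils, and is listed as ENSG00000006606.8 on the minus strand of chromosome 7, from 75769533 to 75789896. Its level was 2.36, 2.06 and 1.61 CPM in replicates 1, 2 and 3 of Hs578T CD44 WT and 0.401, 0.247 and 0.512 CPM in CD44 KO. All CD44 KO libraries lay well below the CD44 WT libraries, at 15 counts in all against 78. The log2 fold change was -2.40 (SE 0.403, adjusted p = 7.55e-04 in edgeR's quasi-likelihood test), and it was called in all 12 fits that left out 1 library.

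In MDA-MB-231, CCL26 was at 2.49, 1.54 and 2.32 CPM in CD44 WT replicates 1 and 3 and the unnumbered library, and at 0.678, 0.795 and 1.48 CPM in CD44 KO. These groups came close to each other at 1.54 and 1.48 CPM without overlapping. The log2 fold change of -1.14 (SE 0.345) was not called (adjusted p = 0.0479), and the difference between the lines of -1.26 was not called either (SE 0.550, adjusted p = 0.160). Both CD44 WT groups held CCL26 at about the same level, 2.01 ± 0.377 and 2.11 ± 0.504 CPM (SD, n = 3 each), so that CCL26 was the tested chemokine with the smallest fitted difference between the untargeted lines (log2 -0.06, SE 0.312, adjusted p = 0.865).

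CXCL8, CXCL1, CXCL2 and CXCL3 lie near each other on chromosome 4 and encode the neutrophil attractants interleukin 8 and the GRO proteins, which act through CXCR2, and interleukin 8 also through CXCR1. Their upstream sequences are shown because all 4 genes were lower in Hs578T CD44 WT than in MDA-MB-231 CD44 WT while none was called between CD44 KO and CD44 WT. The set of RefSeq promoters used here (build GRCh38.p14) held an entry for 6 of the 10 chemokines, and those of CCL26 and CXCL12 held none of the motifs searched. CCL2, CCL5, CXCL16 and CX3CL1 had no entry in that set, so that their promoters were not searched. Each line gives the 150 bases before the RefSeq start site, 5′ to 3′ on the strand of the gene. The windows are chr4:73869243-73869392 (plus strand) for CXCL1, chr4:74099196-74099345 (minus strand) for CXCL2, chr4:74038690-74038839 (minus strand) for CXCL3 and chr4:73740419-73740568 (plus strand) for CXCL8. The annotation behind the counts starts CXCL2, CXCL3 and CXCL8 inside these windows. Capitals mark a kappaB motif (GGAATTTCC), an AP-1 motif (TGANTCA) or a TATA motif (TATAAA), each searched on both strands.
CXCL1: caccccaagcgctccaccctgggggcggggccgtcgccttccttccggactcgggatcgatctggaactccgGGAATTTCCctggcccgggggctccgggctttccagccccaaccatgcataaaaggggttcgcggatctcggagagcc
CXCL2: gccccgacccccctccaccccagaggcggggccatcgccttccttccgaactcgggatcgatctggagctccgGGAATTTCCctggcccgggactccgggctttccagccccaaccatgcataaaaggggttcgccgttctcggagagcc
CXCL3: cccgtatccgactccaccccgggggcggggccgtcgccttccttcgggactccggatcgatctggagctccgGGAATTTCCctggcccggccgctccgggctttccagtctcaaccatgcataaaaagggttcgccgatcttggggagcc
CXCL8: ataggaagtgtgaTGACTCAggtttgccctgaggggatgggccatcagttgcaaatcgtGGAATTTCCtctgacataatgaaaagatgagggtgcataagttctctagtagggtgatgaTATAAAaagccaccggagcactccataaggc

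The kappaB motif began at position -78 in CXCL1, -77 in CXCL2, -78 in CXCL3 and -91 in CXCL8, counted back from the start site. It was found in 0.461% of 35116 promoters of 300 bases, and its letters were chosen after these sequences were seen. CXCL8 alone held the AP-1 motif, at -137 (7.71% of promoters), and the TATA motif in these letters, at -31 (11.5% of promoters). The 3 GRO genes were 86.1% to 88.7% identical to each other over these windows, and 43.6% to 47.3% to CXCL8. These matches are letters in a reference sequence, and binding was not measured.

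CXCL8 was at 0.624, 0.411 and 0.169 CPM in Hs578T CD44 WT and 0.241, 0.370 and 0.341 CPM in CD44 KO, with 16 and 13 counts in all. In MDA-MB-231 it was at 3.09 CPM in CD44 WT replicate 1, 11.6 CPM in replicate 3 and 14.97 CPM in the unnumbered library, and at 9.74, 14.2 and 17.7 CPM in CD44 KO replicates 1, 2 and 3. The groups overlapped in both lines, and replicate 1 of MDA-MB-231 CD44 WT was lower than the other 2 libraries of its group. Neither log2 fold change was called, at -0.36 for Hs578T (SE 0.997, adjusted p = 0.864) and 0.49 for MDA-MB-231 (SE 0.370, adjusted p = 0.470), both by edgeR's quasi-likelihood test. Without MDA-MB-231 CD44 WT replicate 1 the latter was 0.06 (adjusted p = 0.966). CXCL8 is listed as ENSG00000169429.10, from 73740506 to 73743716 on the plus strand.

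CXCL1 (ENSG00000163739.4, from 73869393 to 73871242, plus strand) was close to undetected in Hs578T, at 2 counts over the CD44 WT libraries and 4 over the CD44 KO libraries. In MDA-MB-231 it was at 1.29, 1.78 and 1.96 CPM in CD44 WT replicates 1 and 3 and the unnumbered library, and at 0.424, 0.689 and 1.38 CPM in CD44 KO. Replicate 3 of CD44 KO lay among the CD44 WT libraries and the other 2 below them. The log2 fold change of -1.06 was not called (SE 0.398, adjusted p = 0.112 in edgeR's quasi-likelihood test).

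CXCL3 (ENSG00000163734.4, from 74036589 to 74038807, minus strand) differed in the other direction. It was at 0, 0.165 and 0.339 CPM in Hs578T CD44 WT and 0.401, 0.740 and 0.597 CPM in CD44 KO. In MDA-MB-231 it was at 0.600, 0.730 and 1.16 CPM in CD44 WT and 1.44, 1.64 and 1.68 CPM in CD44 KO. In both lines each CD44 KO library lay above each CD44 WT library, yet neither log2 fold change was called, at 1.84 for Hs578T (SE 0.660, adjusted p = 0.0685) and 0.94 for MDA-MB-231 (SE 0.415, adjusted p = 0.182). The value for Hs578T was 2.82 without CD44 WT replicate 3 (adjusted p = 0.0233) and 1.20 without CD44 WT replicate 1 (0.240). Groups without overlap were common, at 37.3% of all genes for Hs578T and 25.6% for MDA-MB-231, and 4 of the 9 chemokines had them in each line, CCL2, CCL26 and CXCL3 in both, CXCL12 in Hs578T and CXCL16 in MDA-MB-231.

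CXCL2 (ENSG00000081041.8, from 74097035 to 74099293, minus strand) was at 0.0694, 0.165 and 0.0846 CPM in Hs578T CD44 WT and 0.241, 0.185 and 0.0853 CPM in CD44 KO. In MDA-MB-231 it was at 0.857, 1.05 and 1.25 CPM in CD44 WT and 1.19, 0.900 and 2.57 CPM in CD44 KO. The groups overlapped in both lines, and neither log2 fold change was called (0.68, adjusted p = 0.674, in Hs578T and 0.48, adjusted p = 0.510, in MDA-MB-231). The counts of these 3 genes are uncertain, because fragments that matched several genes were not counted. Of all stretches of 50 nt in their transcripts, 4.57% in CXCL1, 13.4% in CXCL2 and 6.01% in CXCL3 also stood in another of the 3, against 0% in CCL2, CCL26, CXCL8 and CXCL12.

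CXCL12 was the highest of the 10 chemokines in Hs578T and had 0 counts in all 6 MDA-MB-231 libraries. It encodes stromal cell-derived factor 1, the ligand of CXCR4 and ACKR3, and is listed as ENSG00000107562.16 on the minus strand of chromosome 10, from 44370165 to 44386493. In Hs578T CD44 WT it was at 82.9, 58.2 and 42.5 CPM in replicates 1, 2 and 3, and in CD44 KO at 31.8, 31.4 and 41.0 CPM. The groups did not overlap, but CD44 WT replicate 3 and CD44 KO replicate 3 lay close to each other. The log2 fold change of -0.82 (SE 0.211) was not called (adjusted p = 0.0239, edgeR's quasi-likelihood test). It passed the threshold by DESeq2 (adjusted p = 0.00449), with no filter on low counts (1.82e-07) and without CD44 WT replicate 3 (log2 fold change -1.03, adjusted p = 0.00288), which was the 1 of 12 fits with a library left out that called it. Without CD44 WT replicate 1 it was -0.54 (adjusted p = 0.104), and without CD44 KO replicate 2 it was -0.75 (0.107). A count of 0 in MDA-MB-231 allows at most 0.0852 CPM over the CD44 WT group and 0.0735 CPM over the CD44 KO group, taking 3 counts as the limit, which covers counting error only.

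CX3CL1 and CXCL16 are made as transmembrane proteins that are shed by the proteases ADAM10 and ADAM17, and they act on CX3CR1 and CXCR6. CX3CL1 (ENSG00000006210.6, chromosome 16, from 57372458 to 57385048, plus strand) was at 2.98, 2.55 and 1.78 CPM in Hs578T CD44 WT and 0.481, 1.79 and 0.682 CPM in CD44 KO. Replicate 2 of CD44 KO reached the lowest CD44 WT library and the other 2 lay below. The log2 fold change of -1.24 was not called (SE 0.433, adjusted p = 0.0748). It was -2.06 without CD44 KO replicate 2 (adjusted p = 0.0144) and -0.93 without CD44 KO replicate 1 (0.227). MDA-MB-231 held a total of 1 count of CX3CL1, in CD44 WT.

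CXCL16 (ENSG00000161921.14, chromosome 17, from 4733526 to 4739922, minus strand) was at 0.832, 1.15 and 0.677 CPM in Hs578T CD44 WT and 0.481, 0.617 and 0.768 CPM in CD44 KO, with overlap (log2 fold change -0.51, SE 0.380, adjusted p = 0.425). In MDA-MB-231 it was at 1.97, 2.03 and 1.16 CPM in CD44 WT replicates 1 and 3 and the unnumbered library, and at 0.762, 1.01 and 0.790 CPM in CD44 KO. These groups did not overlap, and the log2 fold change of -0.98 was not called (SE 0.329, adjusted p = 0.0760 in edgeR's quasi-likelihood test). CCL5 (ENSG00000271503.5, chromosome 17, from 35871491 to 35880793, minus strand), which attracts T cells and monocytes, had 0 counts in all 12 libraries, which allows at most 0.0735 to 0.0852 CPM per group. This limit covers counting error only. Fragments that matched several genes were not counted, and 15.6% of the stretches of 50 nt in CCL5 also stood in other genes.

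More chemokines were called between the lines than between CD44 KO and CD44 WT within a line. Between Hs578T CD44 WT and MDA-MB-231 CD44 WT, 7 of the 9 chemokines tested were called, where 61.5% of all genes tested were called, 29.4% as lower in Hs578T and 32.2% as higher. CCL2, CXCL1, CXCL2, CXCL3 and CXCL8 were lower in Hs578T, while CXCL12 and CX3CL1 were higher. CCL2 was 9.56-fold lower in Hs578T CD44 WT (log2 difference -3.25, SE 0.244, adjusted p = 1.08e-08) and CXCL8 was 24.6-fold lower (-4.54, SE 0.578, adjusted p = 3.74e-06), both by edgeR's quasi-likelihood test. CXCL1 held 2 counts in Hs578T CD44 WT and 59 in MDA-MB-231 CD44 WT, a ratio of 32.1 per effective library size (exact 95% interval 8.52 to 271.7). CXCL12 was at least 735.5-fold higher in Hs578T CD44 WT against a floor of 3 counts over the MDA-MB-231 group.

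CX3CL1 held 95 counts in Hs578T CD44 WT against 1 in MDA-MB-231 CD44 WT, a ratio of 87.2 (exact 95% interval 15.3 to 3478), and CXCL2 was 9.92-fold lower in Hs578T (adjusted p = 2.81e-04). CXCL3 was 4.95-fold lower in Hs578T (log2 -2.32, adjusted p = 0.00322), and it lost the call without Hs578T CD44 WT replicate 1 (-1.68, adjusted p = 0.0126) or 2 (-2.34, 0.0114) or the unnumbered MDA-MB-231 library (-2.02, 0.0163), and was -3.29 without Hs578T CD44 WT replicate 3. CXCL16 was not called (log2 -0.95, adjusted p = 0.0168) except without the unnumbered MDA-MB-231 library (-1.17, adjusted p = 0.00611). Only scaling by library size moved the median of all genes by over 0.1 in this comparison, to 0.159 on the log2 scale, and the same 7 chemokines passed the threshold under it.

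Divided by the exonic length of the gene, the highest level was that of CCL2 in MDA-MB-231 CD44 WT, at 25.9 CPM per kb, followed by CXCL12 in Hs578T CD44 WT at 10.1 CPM per kb and in Hs578T CD44 KO at 5.72 CPM per kb. On this scale CXCL8 reached 4.35 CPM per kb in MDA-MB-231 CD44 WT and 6.11 CPM per kb in CD44 KO, where CCL2 was at 1.84 CPM per kb. Thus CCL2 had the highest level per length among the 10 chemokines in MDA-MB-231 CD44 WT and CXCL8 in MDA-MB-231 CD44 KO, while CXCL12 had it in both Hs578T groups. CCL26, short in exonic length at 706 nt, was at 2.84 CPM per kb in Hs578T CD44 WT, beside 2.71 CPM per kb for CCL2. All other levels per length of CXCL1, CXCL2, CXCL3, CXCL16 and CX3CL1 were at or below 1.29 CPM per kb.

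**Figure D3:**
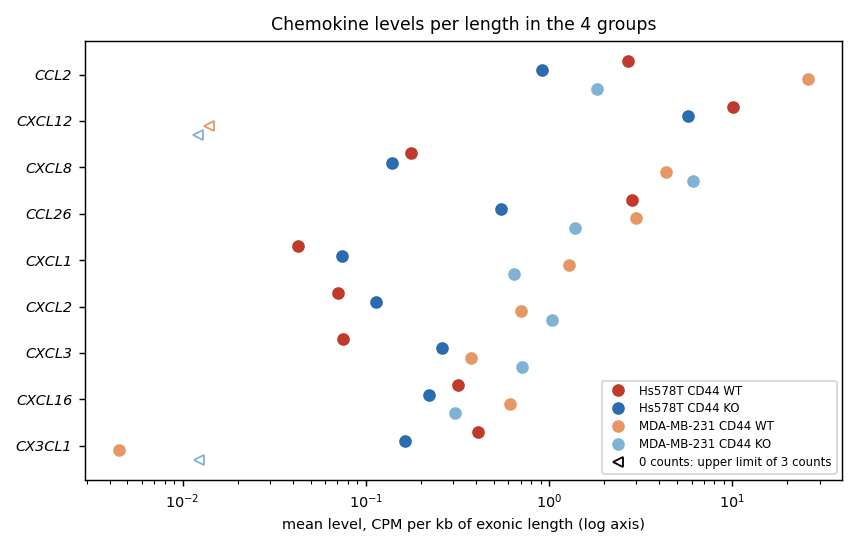
Mean level per group in CPM per kb of exonic length (log axis) for the 9 chemokines with counts, with open triangles at the upper limit of 3 counts for groups at 0 counts. The point of CX3CL1 in MDA-MB-231 CD44 WT rests on 1 count. CCL2 in MDA-MB-231 CD44 WT (25.9) and CXCL12 in Hs578T CD44 WT (10.1) lie farthest to the right.

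The spread between CD44 WT libraries ran across several chemokines at a time. In Hs578T CD44 WT, replicate 1 was the highest and replicate 3 the lowest library for CCL2, CCL26, CXCL8, CXCL12 and CX3CL1. In MDA-MB-231 CD44 WT, replicate 1 was the highest library for CCL2 and CCL26 and the lowest for CXCL1, CXCL2, CXCL3 and CXCL8. This is the library that stood apart over all genes. Without it the log2 fold change of CCL2 between CD44 KO and CD44 WT of MDA-MB-231 was -3.55 (adjusted p = 2.60e-07), and the call was kept.

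**Figure D4:**
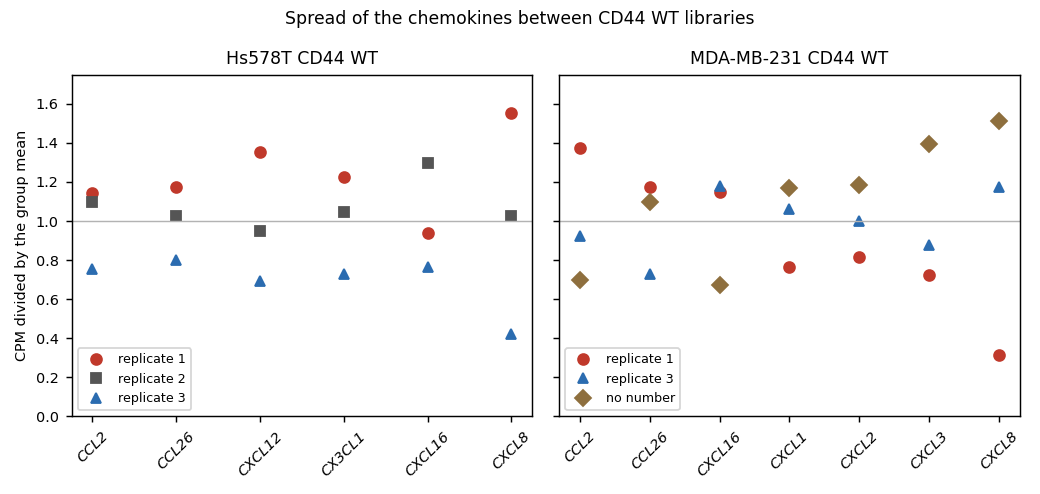
CPM of each CD44 WT library divided by the mean of its group, for the chemokines with more than 10 counts in the group (linear axis, 1 marks the mean). In Hs578T CD44 WT replicate 3 (blue triangles) lies below the mean for all 6 genes, and in MDA-MB-231 CD44 WT replicate 1 (red circles) lies above it for CCL2, CCL26 and CXCL16 and below it for the other 4 genes.

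The receptors and enzymes that act with these ligands were mostly low or not called. Of 36 other chemokine ligands, 22 had 0 counts in Hs578T and 32 in MDA-MB-231, and of the 3 tested 0 were called in either line by edgeR or by DESeq2, with 1 at an unadjusted p under 0.05 in Hs578T and 0 in MDA-MB-231. Of 23 chemokine receptors 3 were tested, and edgeR called 1 lower in Hs578T and 0 in MDA-MB-231. Over all genes tested, 3.86% were called lower in Hs578T and 2.65% in MDA-MB-231. CXCR4, the receptor of CXCL12, was lower in Hs578T CD44 KO, falling from 17 counts over the CD44 WT group to 0 (at least 5.97-fold lower, adjusted p = 0.00449), a call lost without Hs578T CD44 WT replicate 1 or 2 or any CD44 KO replicate (adjusted p = 0.0132 to 0.0228). In MDA-MB-231 its level was 28.3 ± 4.08 CPM in CD44 WT and 17.7 ± 2.56 CPM in CD44 KO (SD, n = 3 each, log2 -0.68, adjusted p = 0.0236), which was not called by edgeR but was called lower by DESeq2. CCR2, the receptor of CCL2, had 0 counts in all libraries.

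Of 6 proteases that process chemokines, 5 were tested and 1 was called lower in each line by edgeR, a different one. Of all genes tested, 3.86% were called lower in Hs578T and 2.65% in MDA-MB-231. DESeq2 made the same calls and also called MMP14 higher in MDA-MB-231 CD44 KO, where edgeR did not (278 ± 27.0 and 399 ± 86.4 CPM, SD, n = 3 each, log2 0.52, adjusted p = 0.0155). DPP4, which trims the start of CXCL12 and other chemokines, was at 6.89 ± 3.59 CPM in Hs578T CD44 WT and 1.63 ± 0.289 CPM in CD44 KO (SD, n = 3 each, log2 -2.10, adjusted p = 0.00102), a call lost by a narrow margin without CD44 KO replicate 2 (0.01003). ADAM17 was at 92.1 ± 14.1 CPM in MDA-MB-231 CD44 WT and 61.8 ± 7.96 CPM in CD44 KO (SD, n = 3 each, log2 -0.57, adjusted p = 0.00547). Its call was lost in 7 of 12 fits that left out 1 library (adjusted p = 0.0101 to 0.0266). Of the 20 tested genes within 1 Mb of ADAM17, 5 were also called lower in MDA-MB-231, with a median log2 fold change of -0.41, and their part in the result was not tested.

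Among 10 cytokines and receptors that induce chemokines, 9 were tested. By edgeR 0 were called in Hs578T, where 7.51% of all genes tested were called in either direction. In MDA-MB-231 2 were called, both with more mRNA in CD44 KO, where 1.97% of all genes tested were called higher. At an unadjusted p under 0.05, 3 of the listed genes passed in Hs578T, and DESeq2 called IL6 higher and IL1R1 lower there. IL1B, which encodes interleukin 1 beta, was at 5.33 ± 2.06 CPM in MDA-MB-231 CD44 WT and 21.4 ± 13.4 CPM in CD44 KO (SD, n = 3 each, log2 1.99, adjusted p = 0.00453). IL1R1, its receptor, was at 1.23 ± 0.685 and 3.11 ± 0.220 CPM in the same groups (log2 1.33, adjusted p = 0.00641). Both calls were lost without MDA-MB-231 CD44 WT replicate 1, with log2 fold changes of 1.73 (adjusted p = 0.0197) and 1.00 (0.0181), and DESeq2 kept that of IL1R1 and not that of IL1B (adjusted p = 0.0154). IL1B was also lost without the unnumbered library (0.0139) or CD44 KO replicate 2 (0.0125) or 3 (log2 1.41, 0.0208), and IL1R1 in 8 further fits that left out 1 library (adjusted p = 0.0101 to 0.0300).

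Of 15 NF-kappaB genes, which are subunits, kinases, inhibitors and the target gene BIRC3, all were tested. In Hs578T CD44 KO 2 were called lower by edgeR, where 3.86% of all genes tested were called lower. In MDA-MB-231 0 were called by edgeR or DESeq2, where edgeR called 4.62% of all genes tested. At an unadjusted p under 0.05, 3 were lower and 3 higher in MDA-MB-231 CD44 KO. NFKB1, which encodes the p50 subunit, was at 51.1 ± 2.09 CPM in Hs578T CD44 WT and 38.9 ± 1.01 CPM in CD44 KO (SD, n = 3 each, log2 -0.39, adjusted p = 0.00685). BIRC3, a target gene of NF-kappaB that encodes a ubiquitin ligase, was at 6.95 ± 1.11 and 3.36 ± 0.713 CPM (log2 -1.03, adjusted p = 0.00656). Both calls were lost without CD44 WT replicate 1 or 2 or any CD44 KO replicate of Hs578T (adjusted p = 0.0201 to 0.0436 for NFKB1 and 0.0119 to 0.0439 for BIRC3), and that of NFKB1 also without CD44 WT replicate 3 (0.0147) or MDA-MB-231 CD44 WT replicate 3 or CD44 KO replicate 2 or 3 (0.0102 to 0.0110). Over the list, the median change on the log2 scale was -0.20 for Hs578T and 0.12 for MDA-MB-231.

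Of 7 regulators of AU-rich mRNA decay, 1 was called lower in Hs578T CD44 KO by edgeR, where 3.86% of all genes tested were called lower. In MDA-MB-231 0 were called by edgeR or DESeq2, where edgeR called 4.62% of all genes tested, and 1 was higher at an unadjusted p under 0.05. The called gene, ZFP36L2, was at 54.4 ± 2.61 CPM in Hs578T CD44 WT and 33.1 ± 1.10 CPM in CD44 KO (SD, n = 3 each, log2 -0.72, adjusted p = 5.57e-05 by edgeR). It encodes a protein that binds AU-rich elements. Of its 9 tested neighbours within 1 Mb, 3 were called lower and 1 higher in Hs578T.

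**Figure D5:**
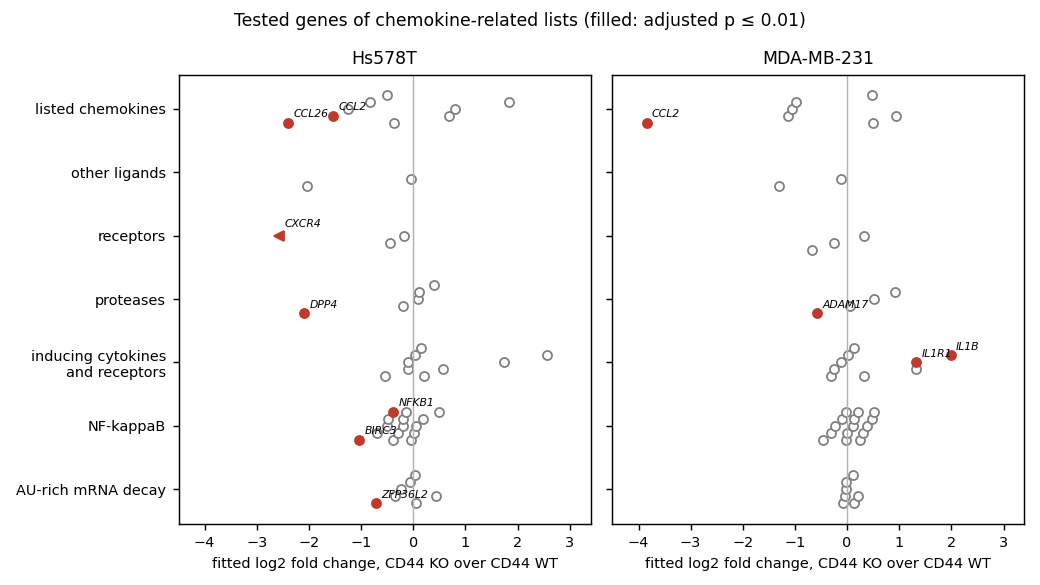
Fitted change of CD44 KO relative to CD44 WT on the log2 scale for the tested genes of 7 lists in Hs578T (left) and MDA-MB-231 (right), filled and named where the adjusted p was at most 0.01; genes with at most 3 counts in both groups are not drawn, and CXCR4 in Hs578T is a triangle at its bound against 3 counts. CCL2 at -3.85 lies farthest from 0 in MDA-MB-231, and IL1B at 1.99 and IL1R1 at 1.33 are the called genes above 0.

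Some markers of other cell types differed between CD44 KO and CD44 WT, in both directions. PTPRC was at 0.369 ± 0.179 CPM in Hs578T CD44 WT and 3.78 ± 0.895 CPM in CD44 KO (SD, n = 3 each, log2 3.33, adjusted p = 3.19e-05). In MDA-MB-231 it went from 10 counts to 2 in CD44 KO and was not called (adjusted p = 0.0988). The summed leukocyte list in MDA-MB-231 was 1.34 to 1.46 CPM in CD44 WT and 1.78 to 3.26 CPM in CD44 KO, with ITGAM, AIF1 and MS4A1 at 0. CSF1R of the same list went from 16 counts in all to 61 with CD44 KO, without overlap (log2 1.71), and was not called by edgeR (adjusted p = 0.0132) but was called higher by DESeq2. Of 4 endothelial markers, KDR was higher in CD44 KO of both lines (0.0737 ± 0.0698 and 1.44 ± 0.252 CPM in Hs578T, 5.97 ± 1.87 and 11.9 ± 1.67 CPM in MDA-MB-231, where 10 of 12 fits that left out 1 library lost the call). The other endothelial markers were not called in either line. In Hs578T CD44 WT and CD44 KO, PECAM1 was at 11.6 and 13.9 CPM, CDH5 at 1.08 and 1.02 CPM, and VWF at 14 and 13 counts. Of 6 fibroblast markers, COL1A2 fell in Hs578T from 92.5 ± 18.9 to 2.26 ± 0.647 CPM and PDGFRA from 37.5 ± 7.56 to 14.9 ± 1.86 CPM, while LUM rose from 2.48 ± 0.657 to 11.2 ± 3.87 CPM. COL1A1, at 3417 ± 743 and 3568 ± 138 CPM in Hs578T CD44 WT and CD44 KO, and PDGFRB, at 51.2 ± 3.84 and 69.1 ± 2.44 CPM, were not called. DCN, at 8 and 21 counts, was not tested. VIM, an intermediate filament of mesenchymal and of many triple negative carcinoma cells, was higher in CD44 KO of both lines (3862 ± 131 and 5041 ± 119 CPM in Hs578T, 4896 ± 178 and 6609 ± 566 CPM in MDA-MB-231). Its call was lost in 4 of 12 fits that left out 1 library in Hs578T (adjusted p = 0.0177 to 0.0223) and in 2 of 12 in MDA-MB-231 (0.0148 and 0.0224). Of the other breast carcinoma line markers in MDA-MB-231, 4 had fitted changes below 0 at an unadjusted p under 0.05 and were not called by edgeR. These were KRT18 (log2 -0.43, adjusted p = 0.01002, called lower by DESeq2), KRT8 (-0.30, 0.0667), KRT19 (-0.26, 0.155) and ERBB2 (-0.30, 0.105). The part of these markers in the chemokine values was not tested.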

How the data were processed

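Paired-end reads of 50 nt from stranded mRNA libraries of 12 samples were aligned to GRCh38 by the authors (HISAT2, version 2.1.0) and assigned to GENCODE genes by featureCounts (version 1.6.2), without fragments that matched several places or genes. The deposited table holds whole-number counts per gene, without normalization, with gene positions and exonic lengths, and no columns of other samples were set aside. The test covered 15836 genes, those over 1 CPM in 2 or more libraries whose exons add up to 300 nt or more. The study's methods state a length under 300 nt, which was read as at least 300 nt, since CCL2 is longer.

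The fit used edgeR 4.0.16 in R 4.3.3 with TMM factors, 4 group means, the legacy quasi-likelihood fit and a prior count of 0.125. CPM were divided by effective library size, and the standard error is the size of the log2 coefficient over the square root of F. CD44 KO was compared with CD44 WT within each line, the 2 changes with each other, and the lines with each other in CD44 WT. Genes were called at a p of 0.01 or less after Benjamini-Hochberg adjustment. Where a group held 0 counts, a floor of 3 counts over the group was used, and for 1 to 3 counts an exact 95% interval. Both cover counting error only, and depth limits genes near this floor. The fit was tested on simulated data. Alternatives were DESeq2 1.42.0, other scalings, filters, fits and thresholds, a replicate block, and each library left out.

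All 10 chemokines are named. From the other lists, called genes are named (at most 6 per list). The 5 genes most like CCL2 were taken by Pearson correlation of log2 CPM (prior count 2) among tested genes with a mean of at least 5 CPM. The chemokines, lists and rules were chosen with earlier results of these data known. Upstream sequences came from RefSeq, and shared stretches of 50 nt were counted in the transcripts of a later GENCODE release. CCL5 was not tested.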

Additional observations from a re-analysis of the deposited data

Results flagged for a closer look

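The change of CCL2 in CD44 KO differed between the lines by the test of that difference itself. It was smaller in Hs578T than in MDA-MB-231, with log2 fold changes of -1.53 and -3.85, and the difference was 2.31 (SE 0.419, adjusted p = 0.00269 in edgeR's quasi-likelihood test). All 3 CD44 KO libraries were lower than all 3 CD44 WT libraries in each line. Over the 12 fits that left out 1 library it ran from 2.02 to 2.51, and it was not called without Hs578T CD44 KO replicate 2 (adjusted p = 0.0223). MDA-MB-231 CD44 WT replicate 1 held the highest CCL2 of all libraries and stood apart from its group over all genes. Single samples were not tested as outlying within the groups of 3 libraries.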

How the results depend on the processing

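For the chemokines, 32 results were recomputed to give 779 values, of which 764 stayed on the same side of the threshold and 9 changed sign, none of them called. Over the fits that left out 1 library, CCL2 in Hs578T ran from -1.78 to -1.39 on the log2 scale and was called in 8 of 12, the number of chemokines called ran from 1 to 3 in Hs578T, and the number called for the difference between the lines from 0 to 1. At an adjusted p of at most 0.05, 2 chemokines were called in MDA-MB-231, CCL2 and CCL26. Of all 15836 genes tested, 1518 were called there at that threshold, against 731 at 0.01. DESeq2 called 3 chemokines in Hs578T, with CXCL12 added, where it called 1553 of all genes tested against 1189 by edgeR.

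With a replicate block by the numbers in the titles, 2 chemokines were called in Hs578T, 1 in MDA-MB-231, 1 for the difference and 7 between the CD44 WT lines, as without it, and a block by the numbers of the library labels gave the same counts. For the title block, the unnumbered library took the number missing from its group. The labels number all libraries in 1 series, and each run of 4 consecutive numbers, with 1 library of every group, made a label block. The correlation of deviations between CD44 KO and CD44 WT libraries of a block ran from -0.0957 to 0.164 by title numbers. By label numbers it ran from 0.00793 to 0.164, above 0.1 in 3 of 6 pairs. Both numberings paired the same libraries in MDA-MB-231, so that they differ only in Hs578T. There the values ran from -0.0957 to 0.0222 by title numbers and from 0.0315 to 0.134 by label numbers. Since neither numbering was above 0.1 in every pair, the numbers were not taken to pair the libraries. Of the called genes in other lists, the block by title numbers lost NFKB1 (adjusted p = 0.0102), IL1R1 (0.0113) and KDR in MDA-MB-231 (0.0107).

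The 18 calls of other lists were put through the same alternatives after the data were seen, and 72 of 449 values lost the call, 0 with a reversed sign. Beyond libraries left out, CXCR4 was lost in the newer quasi-likelihood fit (0.0120), NFKB1 without the filter on low counts (0.0239), IL1B by DESeq2 (0.0154), and ADAM17 (0.0528), IL1B (0.0296), IL1R1 (0.0553), KDR (0.0288) and VIM (0.0224) in MDA-MB-231 with each line fitted alone. A required change of at least 1 on the log2 scale lost NFKB1, ZFP36L2 and VIM in Hs578T and ADAM17 and VIM in MDA-MB-231, whose changes are smaller. The causes were not tested. Low depth limits CXCL1, CXCL2 and CXCL3 in Hs578T, at 2 to 24 counts per group.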

Other observations

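The 5 genes whose level was most like that of CCL2 over the 12 libraries, among 11226 genes compared, were CD59 (Pearson r = 0.966), ZNF761 (0.960), IFITM2 (0.953), ACP1 (0.938) and DMKN (0.931). The libraries fall into 4 groups, so that these values mostly describe the order of 4 group means and carry no p. CD59, which protects cells from complement, was at 167 ± 9.55 and 140 ± 2.44 CPM in Hs578T CD44 WT and CD44 KO and at 226 ± 6.22 and 163 ± 13.7 CPM in the same groups of MDA-MB-231 (SD, n = 3 each). IFITM2, an interferon-induced membrane protein, was at 26.5 ± 2.85 and 19.9 ± 3.98 CPM in Hs578T and at 70.6 ± 8.66 and 31.6 ± 4.60 CPM in MDA-MB-231. All 5 genes shared with CCL2 the highest mean in MDA-MB-231 CD44 WT, and the range over the groups was narrower than for CCL2. IFITM2 lies on chromosome 11, as does the targeted gene, CD44. Of 38 tested genes within 1 Mb of IFITM2, 20 were also called lower in MDA-MB-231 CD44 KO (median log2 fold change -0.71). Over all genes tested, 2.65% were called lower in that line. CCL2 had 0 of 8 neighbours called lower in either line. CD59, on the same chromosome, had 4 of 19 such neighbours called lower in MDA-MB-231 CD44 KO (median -0.31). ACP1, on chromosome 2, had 2 of 4 (median -0.74), and ZNF761 and DMKN had 0 called lower in that line. The part of the neighbours in these likenesses was not tested.

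CXCL14, a chemokine of epithelia that was chosen here after its values were seen, did not pass the filter. It held 24 counts in Hs578T CD44 WT and 0 in CD44 KO, which makes it at least 8.42-fold lower if 3 counts are taken as the floor of the group, and 2 counts in MDA-MB-231 CD44 WT.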
